A study of Homo sapiens with 24 samples.

Results

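Chromatin peaks at 6 loci of the Hippo and TEAD pathway were examined in RD, a human fusion-negative rhabdomyosarcoma cell line. The members were all ChIP-seq peaks that overlapped 6 fixed windows of the hg19 build by at least 1 bp, around YAP1, WWTR1, TEAD1, TEAD4, CCN1 and CCN2. There were 703 such peaks of 564552 in 14 peak lists. The windows were fixed by position, with no threshold on a measured value, but the loci were chosen with earlier results of these data known. They span chr11:101930000-102160000 for YAP1, chr3:149180000-149510000 for WWTR1, chr11:12640000-13020000 for TEAD1, chr12:3010000-3200000 for TEAD4, chr1:85990000-86100000 for CCN1 and chr6:132210000-132330000 for CCN2, or 1.36 Mb in all.

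Each peak list came from 1 ChIP-seq library of RD cells. For histone H3 lysine 27 acetylation (H3K27ac), for the myogenic factor MYOD and for SMARCA4, there were 2 libraries labelled TWIST2 KD and 2 labelled control. A tagged protein, 3xTy1-TWIST2, was immunoprecipitated with a Ty1 antibody in 2 further libraries, and no Ty1 library of untagged cells was among the samples. TWIST2 is a basic helix-loop-helix transcription factor that binds E-box motifs, and KD is its knockdown. How the knockdown was done, and how much TWIST2 was left, is not given in the sources used here. The SMARCA4 libraries carry the set name RD-2 and all others RD-1, and the labels do not say what the sets are. Nor do they say whether the 2 libraries of a group came from separate cultures, so p-values measure the spread between libraries, which may be technical.

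The Hippo pathway is a kinase cascade whose last step, carried out by the LATS kinases, keeps the co-activators YAP and TAZ out of the nucleus. YAP1 encodes YAP and WWTR1 encodes TAZ. In the nucleus both bind the TEAD factors, among them TEAD1 and TEAD4, which recognise the DNA word GGAATG and give YAP and TAZ their access to DNA. CCN1 (also called CYR61) and CCN2 (also called CTGF) encode secreted matricellular proteins and are classical targets of YAP, TAZ and TEAD. H3K27ac marks active promoters and enhancers, MYOD is the muscle-determining helix-loop-helix factor that RD cells express without finishing differentiation, and SMARCA4, or BRG1, is the motor subunit of SWI/SNF complexes, which move nucleosomes.

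To show what a TEAD word looks like at these genes, promoter sequences were read from the RefSeq table of build GRCh38.p14, from 250 bases before to 50 bases after each start. The table matched 3 of the 6 genes, YAP1, WWTR1 and CCN2. CCN2 (chr6:131951323-131951622, minus strand) held GGAATG 3 times, at bases 82 to 87, 147 to 152 and 156 to 161. YAP1 (chr11:102110197-102110496, plus strand) held it once, at bases 89 to 94, and neither of the 2 WWTR1 starts held it. The word was searched on both strands as GGAATG or CATTCC, and 14.0% of 35116 promoters held at least 1 copy, while 0.128% held at least 3. An E-box word, CANNTG, read the same on both strands, was in 68.7% of all promoters, in YAP1 as CACGTG and not in CCN2. The WWTR1 start at chr3:149703224-149703523 held it as CATGTG and CAGATG, and the other WWTR1 start did not hold it. Capitals mark the TEAD word below, 5′ to 3′. These coordinates are not those of the peak lists, so no peak was placed on the sequences.
CCN2: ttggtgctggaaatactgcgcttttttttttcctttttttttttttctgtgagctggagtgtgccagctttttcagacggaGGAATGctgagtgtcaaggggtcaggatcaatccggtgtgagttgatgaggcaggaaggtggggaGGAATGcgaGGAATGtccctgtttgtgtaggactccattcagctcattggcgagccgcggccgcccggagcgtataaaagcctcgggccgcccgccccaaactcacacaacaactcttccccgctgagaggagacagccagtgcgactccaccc
YAP1: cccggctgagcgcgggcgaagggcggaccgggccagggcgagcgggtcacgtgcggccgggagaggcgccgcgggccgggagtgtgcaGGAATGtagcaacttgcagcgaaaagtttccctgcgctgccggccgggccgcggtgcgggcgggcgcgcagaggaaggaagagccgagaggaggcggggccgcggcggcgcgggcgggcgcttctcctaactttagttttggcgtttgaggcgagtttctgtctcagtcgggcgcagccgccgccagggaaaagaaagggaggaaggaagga

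H3K27ac covered more of both target-gene windows and of the TEAD1 window in both KD libraries than in either control library. It covered less of the YAP1, WWTR1 and TEAD4 windows in both KD libraries. In the CCN2 window H3K27ac peaks covered 13.5 and 11.8 kb in KD cells, against 5.80 and 5.04 kb in control cells. In the CCN1 window they covered 16.4 and 16.2 kb in KD cells, against 10.2 and 7.56 kb in control cells. The ratio of the means, KD over control, was 2.33 at CCN2 and 1.83 at CCN1, and 1.27 for the covered length of the whole genome (106 against 83.6 Mb).

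Among the DNA-binding partners, the TEAD1 window was covered over 61.4 and 58.3 kb in KD cells, against 45.6 and 40.4 kb in control cells (ratio 1.39). The TEAD4 window was covered over 20.6 and 21.7 kb in KD cells, against 26.3 and 24.5 kb in control cells (ratio 0.834). So the 2 TEAD windows stood on opposite sides, with no overlap between the groups in either. The co-activator windows were both less covered in KD cells. WWTR1 had 62.3 and 59.4 kb in KD cells, against 76.8 and 67.3 kb in control cells (ratio 0.844), and YAP1 had 12.3 and 11.3 kb in KD cells, against 14.6 and 12.6 kb in control cells (ratio 0.866).

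**Figure D1:**
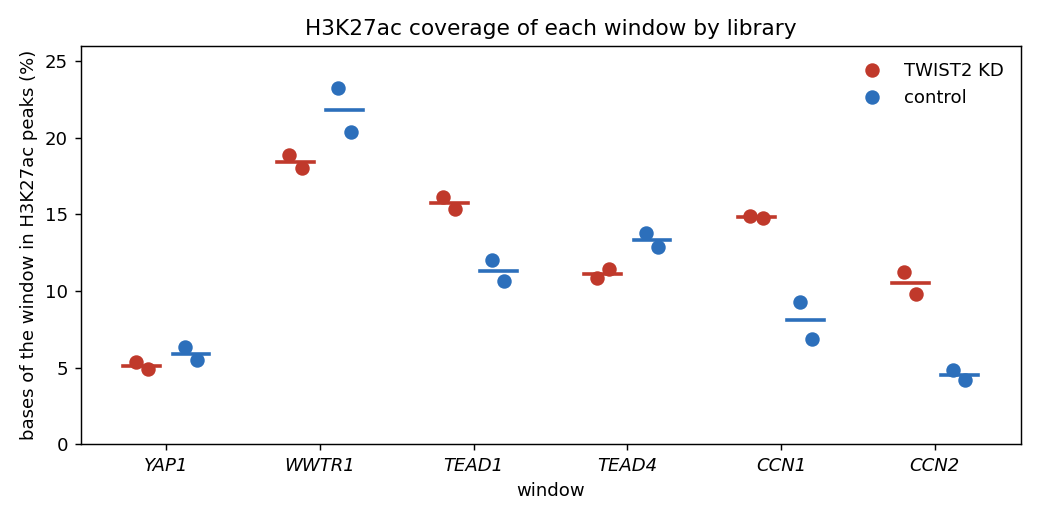
Share of each window's bases that lay in H3K27ac peaks (percent) for the 2 TWIST2 KD libraries (red, left) and the 2 control libraries (blue, right). Points are libraries and lines are means of 2. Both KD points lie above both control points for TEAD1, CCN1 and CCN2 and below them for YAP1, WWTR1 and TEAD4.

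In every window the groups did not overlap, and the exact two-sided permutation test over 2 against 2 libraries gave p = 0.333, the smallest this design allows. Of 9639 bins of 200 kb across the genome with H3K27ac, 66% were covered more in both KD libraries and 17.2% less. The 3 windows on the lower side thus ran against the more frequent direction. Bins, here and below, were not matched to the windows in length (110 to 380 kb) or in density of peaks. The sum over the 6 windows was 186 and 179 kb in KD cells, against 179 and 157 kb in control cells, and these groups overlapped (exact permutation p = 0.667). It differed by 14.2 kb with all libraries, by 3.23 kb without control replicate 2 and by 25.1 kb without control replicate 1. The YAP1 and WWTR1 differences also moved with control replicate 1. Without control replicate 1 the KD minus control difference was -0.838 kb at YAP1, against -1.82 kb with all libraries. At WWTR1 it was then -6.47 kb, against -11.2 kb with all libraries.

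Coverage can differ through the number of peaks or through their width, and the windows divided by both. The CCN1 window had 5 and 6 H3K27ac peaks in KD cells, against 4 and 2 in control cells, and the CCN2 window had 7 and 7, against 4 and 5. Peaks were therefore more numerous at both targets in each KD library. Of 9621 bins, 47.9% had more H3K27ac peaks in both KD libraries and 6.64% had fewer. The mean H3K27ac peak in the CCN2 window was 1922 and 1686 bp wide in KD cells, against 1449 and 1008 bp in control cells, while at CCN1 the widths overlapped (3368 and 2762 bp in KD cells, against 2559 and 3780 bp in control cells).

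In the TEAD1 window the numbers were almost equal, 18 and 17 peaks in KD cells against 18 and 18 in control cells, and the width differed. The mean TEAD1 peak measured 3410 and 3427 bp in KD cells, against 2534 and 2247 bp in control cells. At TEAD4 there were 10 and 11 peaks in KD cells, against 9 and 9 in control cells, but they were narrower, with means of 2064 and 1971 bp in KD cells, against 2917 and 2721 bp in control cells. At WWTR1 the peak numbers overlapped (19 and 23 in KD cells, against 23 and 17 in control cells), and the mean width was 3277 and 2584 bp in KD cells, against 3341 and 3960 bp in control cells. At YAP1 the numbers were 6 and 7 in KD cells, against 5 and 6 in control cells, with mean widths of 2051 and 1611 bp in KD cells, against 2920 and 2105 bp in control cells. Over the whole lists the median width, not the mean, was 1757 and 1777 bp in KD cells, against 1835 and 1870 bp in control cells. Narrower peaks were thus also the direction of the whole lists, and TEAD1 and CCN2 ran against it.

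Over the 6 windows together, H3K27ac had 65 and 71 peaks in KD cells, against 63 and 57 in control cells. MYOD had 63 and 55 peaks in KD cells, against 57 and 47 in control cells. SMARCA4 had 10 and 21 peaks in KD cells, against 15 and 32 in control cells. The H3K27ac groups did not overlap (exact permutation p = 0.333) and those of MYOD and SMARCA4 did (exact permutation p = 0.667 each). Adjusted over the 3 antibodies by the Benjamini-Hochberg method, each permutation p was 0.667. The H3K27ac lists were also longer in KD cells as a whole, with 48022 and 46822 peaks, against 36679 and 34932 in control cells. With lists cut to equal length in their deposited order, the KD minus control difference was -5.5 peaks, in place of 8. What that order stands for is not stated in the files, so the cut is not known to keep the strongest peaks. The SMARCA4 difference, -8 peaks, also rested on 1 library. Without control replicate 2, whose list of 25013 peaks is the longest of the 4, it was 0.5.

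**Figure D2:**
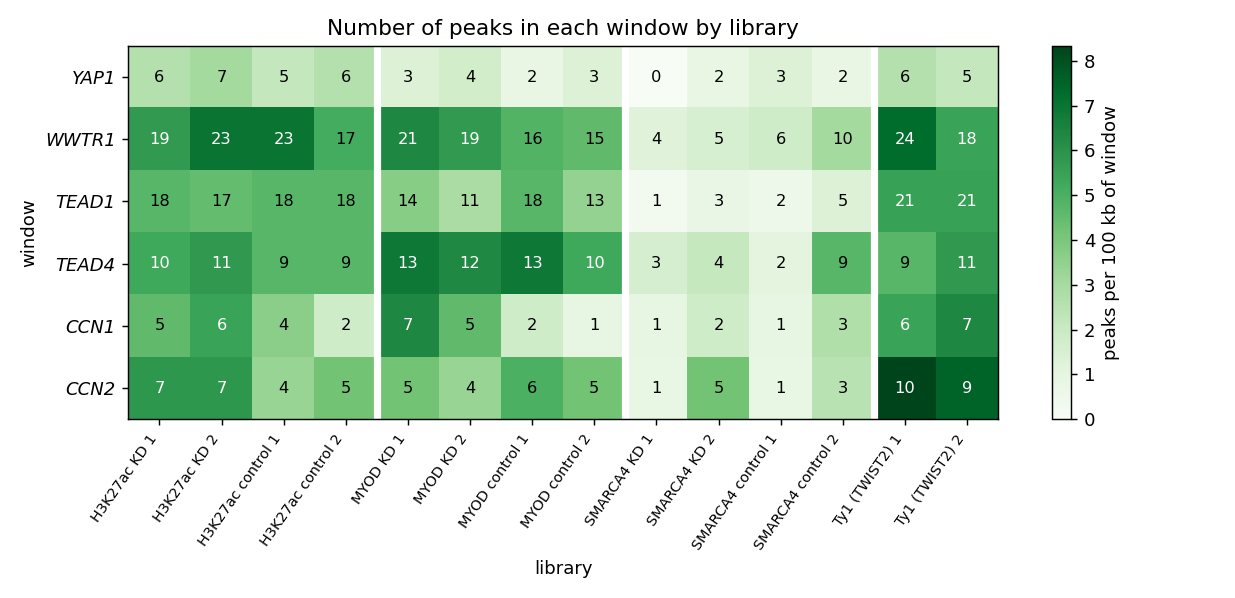
Number of peaks (printed) in each window and library, coloured by peaks per 100 kb of window; for each antibody the 2 KD libraries stand left of the 2 control libraries, and the 2 Ty1 libraries are on the right. MYOD at CCN1 had 7 and 5 peaks in KD cells, against 2 and 1 in control cells, and the Ty1 columns are densest at CCN2.

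Merging the H3K27ac peaks of the 4 libraries gave 74 regions in the windows, of which 43 were found in every library (shared). A further 9 were found in both KD libraries but in neither control (KD-only), and 3 the other way round (control-only). As shares of the 74 regions these were 58.1%, 12.2% and 4.05%. Over all 55905 merged regions of the genome 49.1% were shared, 19.8% KD-only and 4.21% control-only. KD-only regions were thus a smaller share in the windows than in the genome, and control-only regions a similar one. They were not spread evenly, with 3 KD-only regions each at TEAD4 and CCN2, 2 at TEAD1, 1 at CCN1 and none at YAP1 or WWTR1. The control-only regions were 1 each at YAP1, WWTR1 and TEAD4. Without control replicate 1, KD-only regions numbered 14 and control-only regions 7, and without control replicate 2 control-only regions numbered 9. Leaving out a library drops a condition of each class, so such counts can only stay or rise.

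Tagged TWIST2 was present in most of the KD-only regions. A TWIST2 region here is a place with a Ty1 peak in both libraries. A region is said to hold another where they overlap by at least 1 bp, which can be at an edge. Of the 9 KD-only H3K27ac regions 6 overlapped a TWIST2 region (66.7%), as did 22 of the 43 shared regions (51.2%) and none of the 3 control-only regions. In the whole genome the shares were 31.5% of KD-only, 52.0% of shared and 25.9% of control-only regions. None of the 3 control-only regions held any MYOD or SMARCA4 peak, while 6 of the 9 KD-only regions held MYOD (66.7%) and 3 held SMARCA4 (33.3%). In the genome, KD-only regions held MYOD in 67.3% and SMARCA4 in 23.2% of cases. Control-only regions there held MYOD in 64.2% and SMARCA4 in 35.1%.

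At CCN2, the KD-only H3K27ac regions all lay to one side of the widest region. The widest H3K27ac region of the window, at chr6:132270252-132273422, was present in all libraries, with widths of 3171 and 2788 bp in KD cells, against 2707 and 2327 bp in control cells. It held no TWIST2 region, and it held a control-only MYOD region at chr6:132272482-132272709. The KD-only region at chr6:132296905-132299033 was 2129 and 1603 bp wide in KD cells. It held a TWIST2 region, a MYOD region shared by all 4 libraries and a SMARCA4 region found in both control libraries and in no KD library. So H3K27ac (set RD-1) and SMARCA4 (set RD-2) were found in opposite groups at one place, while MYOD (set RD-1) was found in both. The KD-only regions at chr6:132316408-132317772 (1214 and 1064 bp) and chr6:132320319-132321491 (1155 and 1172 bp) held no MYOD, and the first of them held a TWIST2 region.

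The CCN2 region with the largest ratio of widths was shared by all libraries and is named here after its values were seen. At chr6:132258164-132260814, H3K27ac measured 2651 and 2417 bp in KD cells, against 501 and 501 bp in control cells, a ratio of the means of 5.06. A width of 501 bp is the most frequent in these lists, at 8.34% to 9.28% of all H3K27ac peaks of a library. It is also the smallest width in both KD lists and in control replicate 2, and control replicate 1 had 1 narrower peak, of 478 bp. Both control widths thus stood at the floor of the lists, and the ratio is to that floor. This region overlapped 1 TWIST2 region. SMARCA4 had a KD-only region at chr6:132287471-132287712, on shared H3K27ac, shared MYOD and TWIST2. The authors' own peak values put it low in both KD lists, at percentiles 16.0 and 12.9 of score. Its KD peaks, at chr6:132287572-132287712 and chr6:132287471-132287615, overlapped in part, and control replicate 2 had a SMARCA4 peak close by at chr6:132287743-132287901. With peaks merged within 500 bp, or with an overlap of at least 0.5 of the shorter peak, 1 KD-only SMARCA4 region was left in the 6 windows.

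At CCN1, a wide domain of acetylation was common to all libraries, and smaller regions lay around it. The domain at chr1:86041522-86048911 measured 7339 and 7224 bp in KD cells, against 6968 and 6655 bp in control cells, so it was wider in both KD libraries. It held a TWIST2 region and no MYOD peak in any library. The KD-only H3K27ac region at chr1:86077062-86079360 was 2239 and 2299 bp wide and held a TWIST2 region. At the edge of the window, chr1:85989547-85993620 measured 4074 and 3298 bp in KD cells, against 1349 bp in control replicate 1 and no peak in control replicate 2. It contained a KD-only MYOD region at chr1:85992833-85993103. MYOD had 7 and 5 peaks in the CCN1 window in KD cells, against 2 and 1 in control cells (exact permutation p = 0.333). With the window widened by 50000 bp on each side the KD minus control difference was 3 peaks, in place of 4.5, and the groups overlapped (exact permutation p = 0.667). Genome-wide, 25.5% of bins with MYOD had more peaks in both KD libraries and 8.16% had fewer. A second KD-only MYOD region, at chr1:86012526-86012851, had no H3K27ac in any library.

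**Figure D3:**
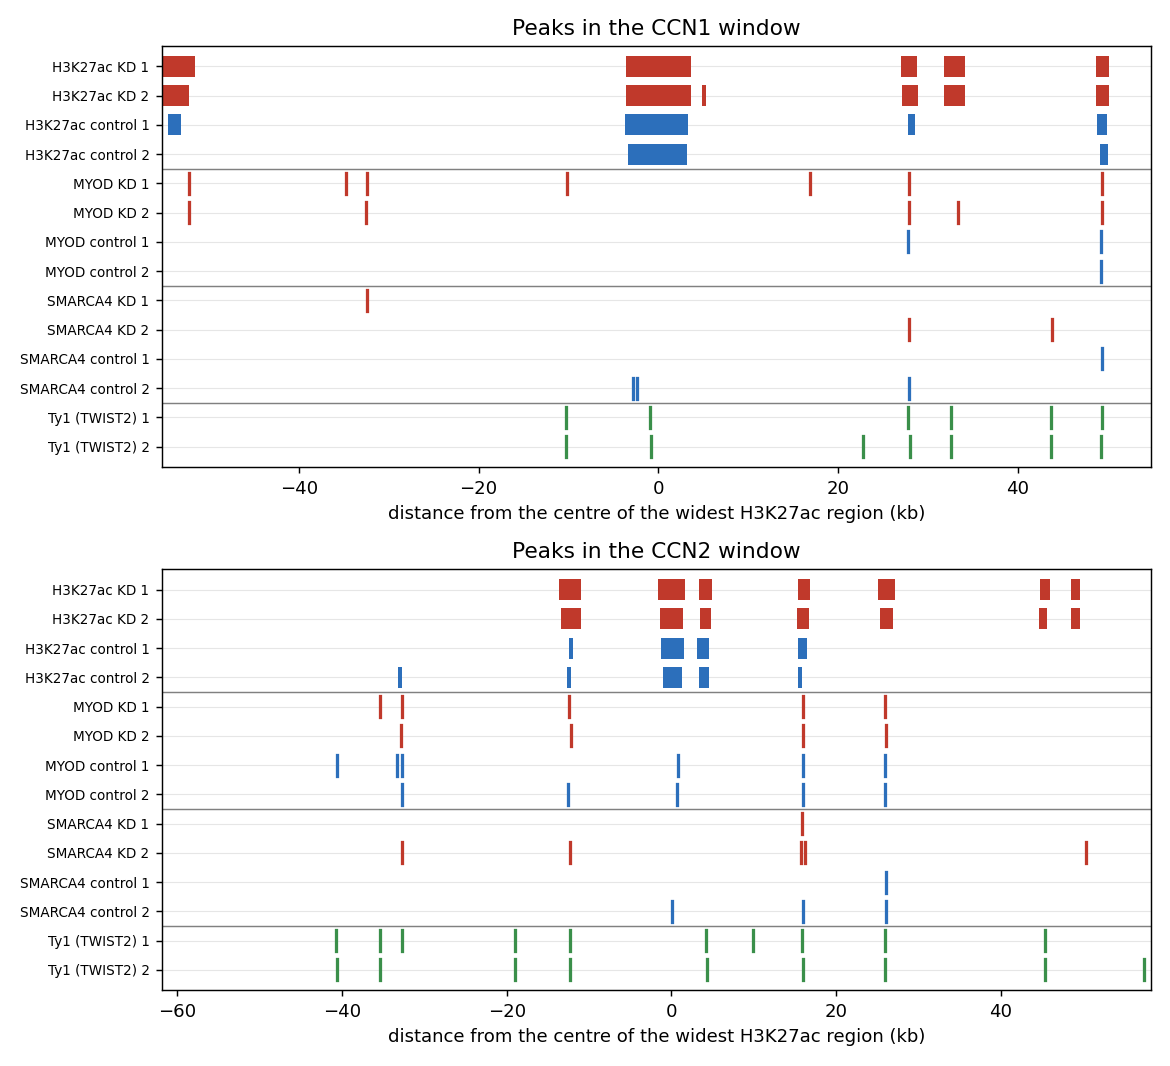
Peaks in the CCN1 (top) and CCN2 (bottom) windows by library, as distance in kb from the centre of the widest H3K27ac region. Bars are H3K27ac peaks to scale and ticks mark the centres of the other peaks, with KD in red, control in blue and Ty1 in green. Both KD tracks of CCN2 have 7 H3K27ac peaks, against 4 and 5 in the control tracks.

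TEAD1 is a broadly expressed TEAD factor. Of the 14 shared H3K27ac regions in its window 7 were wider in both KD libraries than in both control libraries, 1 was narrower and 6 overlapped. Of shared regions in the genome 45.4% were wider and 29.8% narrower, so the share of wider ones was near the background. Its widest region, chr11:12694273-12703700, measured 9416 and 9301 bp in KD cells, against 8409 and 8356 bp in control cells. The next 3 regions, with larger differences, are named after their values were seen. The region chr11:12785392-12793436 was one unbroken peak of 8045 and 7793 bp in KD cells, and in control cells it was broken in pieces that summed to 4393 and 3138 bp. The region chr11:12796607-12801614 measured 4265 and 5008 bp in KD cells, against 1868 and 2598 bp in control cells. The region chr11:12861800-12869755 measured 7830 and 7788 bp in KD cells, against 5665 and 4984 bp in control cells. Each of the 3 overlapped 1 TWIST2 region, and they held 2 MYOD regions each.

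Both KD-only H3K27ac regions of TEAD1 held MYOD. The one at chr11:12853473-12855930 (2458 and 1899 bp) held MYOD in all 4 libraries together with TWIST2. In the other, at chr11:12829637-12831109 (1346 and 1415 bp), MYOD too was KD-only, at chr11:12830013-12830385, with no TWIST2 region. MYOD over the TEAD1 window had 14 and 11 peaks in KD cells, against 18 and 13 in control cells, and the groups overlapped.

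The TEAD4 window had the most mixed picture. TEAD4 is the TEAD factor most tied to skeletal muscle cells in culture, where it is a MYOD target in mouse. Of 6 shared H3K27ac regions 4 were narrower in both KD libraries and none was wider. In the genome 29.8% of shared regions were narrower and 45.4% wider. The region chr12:3066491-3074144, named after its values were seen, measured 4079 and 4157 bp in KD cells, in 2 pieces, against 7654 and 7035 bp in control cells, in 1 piece. The widest region by mean width, chr12:3138776-3145788, measured 6288 and 6025 bp in KD cells, against 6459 and 5922 bp in control cells, so these groups overlapped. It held the MYOD region chr12:3142735-3142988, whose peak stood at percentile 99.6 or above in each of the 4 MYOD lists, counted from the end of the list. The files do not say what the order of these lists means.

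TEAD4 also had 3 KD-only H3K27ac regions. The region chr12:3092019-3093634 (1315 and 1427 bp in KD cells) held a KD-only MYOD region at chr12:3092892-3093208 and no TWIST2 region. The region chr12:3158572-3159211 (633 and 640 bp) overlapped TWIST2, MYOD shared by all 4 libraries and KD-only SMARCA4 at chr12:3159206-3159383. The MYOD region, chr12:3159196-3159445, and the SMARCA4 region met it only at its edge and lay mostly outside it. The region chr12:3182642-3183886 (1085 and 1061 bp) held TWIST2 and no MYOD. The control-only region chr12:3124836-3125905 (943 and 631 bp in control cells) held none of the 3 factors. At chr12:3108023-3108351 stood the one SMARCA4 region of the 6 windows with a peak in all 4 libraries. It lay on H3K27ac and MYOD, both shared by all 4 libraries, and on TWIST2. That H3K27ac region, chr12:3107151-3110410, was 1830 and 2002 bp wide in KD cells, against 2955 and 3260 bp in control cells.

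**Figure D4:**
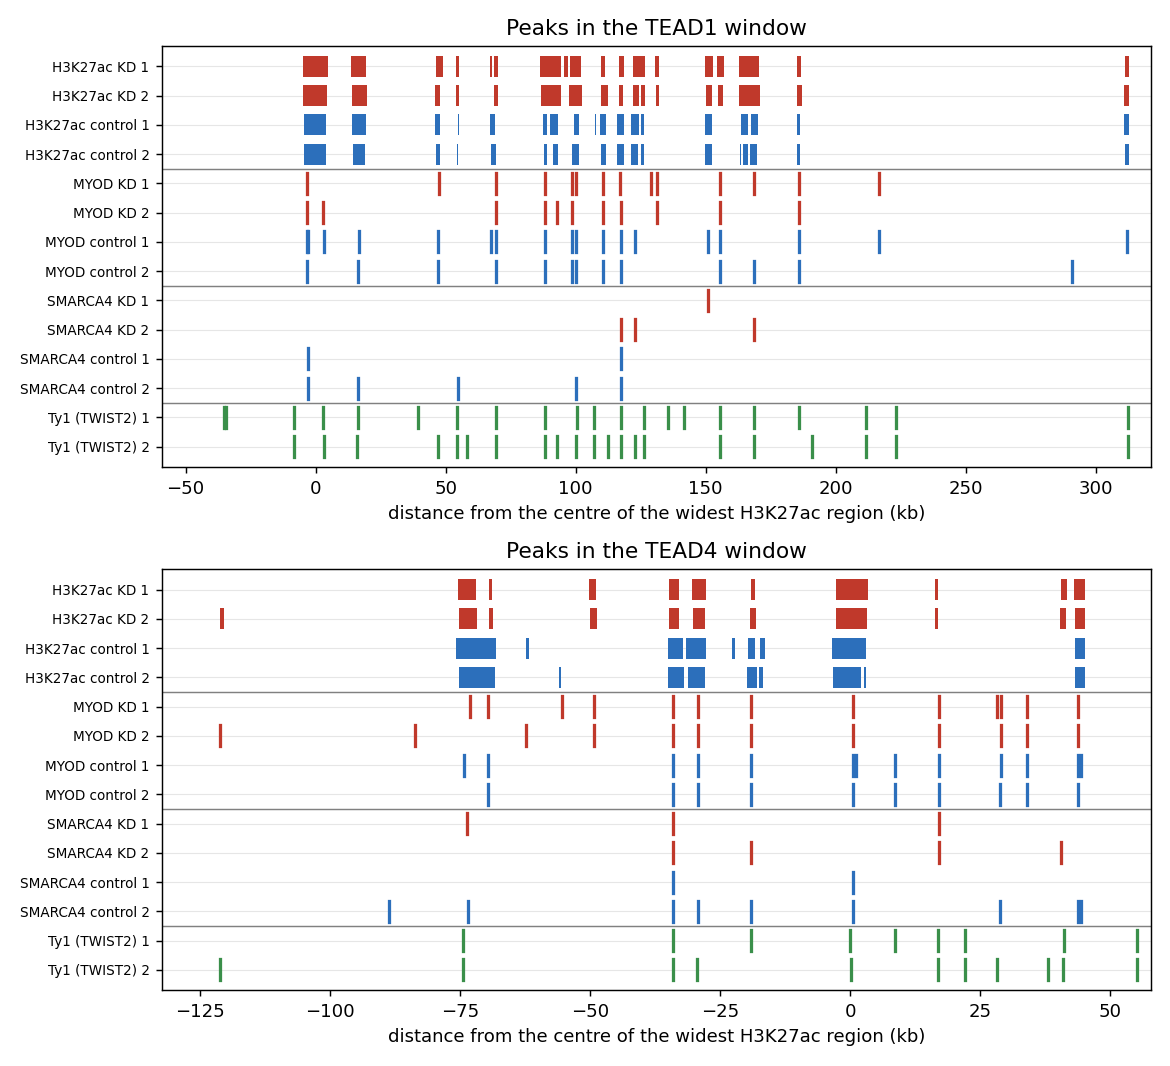
Peaks in the TEAD1 (top) and TEAD4 (bottom) windows by library, as distance in kb from the centre of the widest H3K27ac region; bars are H3K27ac peaks to scale and ticks mark the centres of the other peaks, with KD in red, control in blue and Ty1 in green. Right of the centre in TEAD1 several KD bars are unbroken where the control bars are broken, and at the left of TEAD4 the control bar is unbroken (7654 and 7035 bp) where the KD bars are broken (4079 and 4157 bp).

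At WWTR1, the gene of TAZ, the share of the window covered by H3K27ac was the highest of the 6 in each library, at 18.9% and 18.0% in KD cells, against 23.3% and 20.4% in control cells. One region, chr3:149290016-149314366, was a single peak of 24117 and 23922 bp in the control libraries. In the KD libraries it was broken into 3 and 4 peaks that summed to 20782 and 17296 bp. It held 1 TWIST2 region and 5 MYOD regions. Of the 14 shared WWTR1 regions 7 were narrower in both KD libraries and 3 were wider, against 29.8% narrower and 45.4% wider in the genome. The region chr3:149271460-149275707, named after its values were seen, measured 1406 and 2174 bp in KD cells, against 4117 and 3761 bp in control cells. Within it lay 2 TWIST2 regions and a KD-only MYOD region, chr3:149273773-149274047. The control-only H3K27ac region chr3:149250256-149251032 was 777 and 501 bp wide in control cells.

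MYOD in the WWTR1 window had 21 and 19 peaks in KD cells, against 16 and 15 in control cells, with no overlap (exact permutation p = 0.333). In this window MYOD peaks were thus more numerous in both KD libraries while H3K27ac covered less. Of bins with MYOD in the genome, 25.5% had more MYOD peaks in both KD libraries and 8.16% had fewer. The whole MYOD lists were also longer in KD cells, with 52510 and 48003 peaks, against 44974 and 43381 in control cells. A KD-only MYOD region on TWIST2 lay at chr3:149454140-149454411, in a merged H3K27ac region with peaks from 3 libraries. Of these, only the KD replicate 1 peak, chr3:149453808-149454881, spanned the MYOD region. The control replicate 1 peak, chr3:149453714-149454214, covered part of it, and the KD replicate 2 peak, chr3:149453552-149454052, ended before it. A control-only MYOD region on TWIST2, at chr3:149198253-149198477, coincided with a control-only SMARCA4 region and had no H3K27ac peak in any library. SMARCA4 had 4 and 5 peaks in this window in KD cells, against 6 and 10 in control cells. Of bins with SMARCA4 in the genome, 13.4% had fewer peaks in both KD libraries and 4.57% had more.

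YAP1 had the fewest Ty1 peaks for its length of the 6 windows, 2.61 and 2.17 per 100 kb. Its widest H3K27ac region, chr11:101979833-101989369, measured 6747 and 6505 bp in KD cells, in 3 pieces each, against 9454 and 8270 bp in control cells. Control replicate 1 had a single peak there, and control replicate 2 was broken into peaks of 4472 and 3798 bp. This region held the only TWIST2 region of the window. Beside it, the control-only region chr11:101989913-101991894 was 1978 and 1982 bp wide in control cells and held no factor peak. The other shared regions were wider in KD cells, chr11:102008595-102011233 with 2516 and 2426 bp in KD cells, against 1726 and 1377 bp in control cells, and chr11:102067400-102069030 with 1631 and 943 bp, against 941 and 501 bp. No MYOD region of the YAP1 window was found in all 4 libraries, and none of the 7 was KD-only or control-only. In the widest H3K27ac region, though, MYOD peaks of KD replicate 2 and both control libraries overlapped. A KD replicate 1 peak at chr11:101981174-101981386 began just beyond the control replicate 1 peak at chr11:101981011-101981169. Under the 1 bp overlap rule these did not merge, so MYOD was close together there in each library. SMARCA4 had no peak here in KD replicate 1, 2 in KD replicate 2, and 3 and 2 in control cells.

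**Figure D5:**
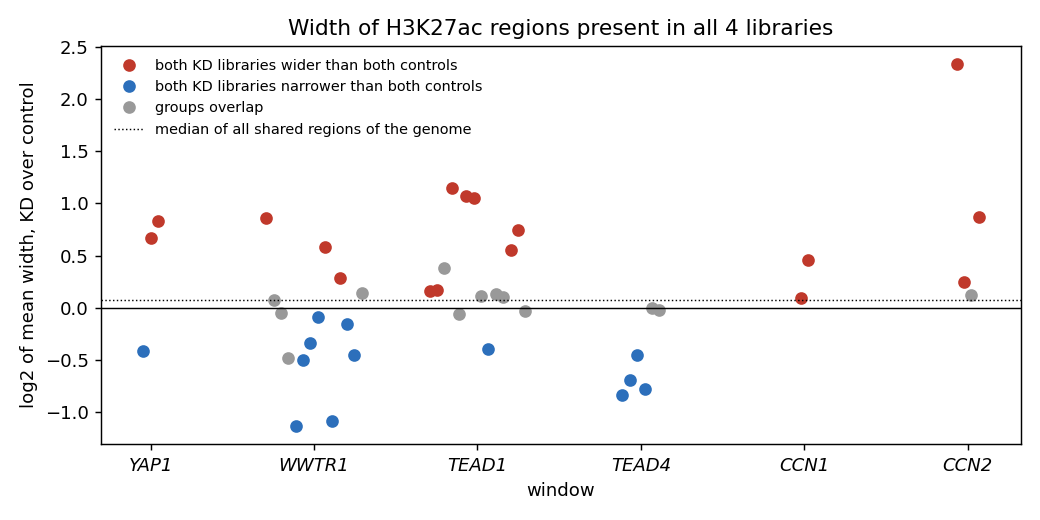
Log2 of the ratio of mean H3K27ac width, KD over control, for each of the 43 regions present in all 4 libraries, by window; red points are wider in both KD libraries, blue points narrower in both, grey points overlap. The dotted line is the median over all shared regions of the genome (0.07); no TEAD4 point lies above 0 and no CCN1 or CCN2 point below it.

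Counted over the windows, 17 of the 43 shared H3K27ac regions were wider in both KD libraries (39.5%) and 13 were narrower (30.2%). In the genome 45.4% of 27442 shared regions were wider and 29.8% narrower. The share over the windows was thus near that of the genome, and the difference lay between windows, as the plot of widths shows. The median log2 ratio of width was 0.10 over the 43 regions and 0.07 over the genome. By window it was 0.67 at YAP1, -0.12 at WWTR1, 0.16 at TEAD1, -0.57 at TEAD4, 0.28 at CCN1 and 0.56 at CCN2. The YAP1, CCN1 and CCN2 medians rest on 3, 2 and 4 regions. Without control replicate 1, 26 regions were wider. Width was compared for H3K27ac alone, since each MYOD, SMARCA4 and Ty1 list holds peaks of 1 fixed width (159 to 225, 140 to 194, and 231 and 239 bp). These fixed widths differed by group. MYOD peaks were 213 and 225 bp in KD lists, against 159 and 179 bp in control lists. SMARCA4 peaks were 140 and 144 bp in KD lists, against 194 and 158 bp in control lists. The part of these widths in overlaps with TWIST2 regions was not tested.

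MYOD regions in the windows were mostly found in fewer than 4 libraries. Of 98 MYOD regions 32 were shared (32.7%), 7 KD-only (7.14%) and 4 control-only (4.08%), against 20.3%, 9.1% and 5.41% of 88541 regions in the genome. Without KD replicate 1 there were 17 KD-only regions, and without KD replicate 2 there were 23. Without control replicate 1 there were 9 control-only regions, and without control replicate 2 there were 17. The KD-only regions were 3 at WWTR1, 2 at CCN1 and 1 each at TEAD1 and TEAD4. The control-only regions were 1 each at WWTR1, TEAD1, TEAD4 and CCN2. Of the 7 KD-only regions 2 lay in KD-only H3K27ac (28.6%), as did 29.8% of KD-only MYOD regions in the genome. Of the 32 shared MYOD regions 25 lay in shared H3K27ac (78.1%, against 72.0% in the genome).

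Most SMARCA4 regions did not repeat between libraries. Of 58 SMARCA4 regions 43 were found in a single library (74.1%, against 74.5% in the genome). There were 2 KD-only regions (3.45%), 5 control-only regions (8.62%) and 1 shared region (1.72%), against 1.91%, 6.68% and 1.11% of 48009 regions in the genome. Both KD-only regions lay on TWIST2 regions. Besides those named above, control-only regions lay at WWTR1 in chr3:149470195-149470432, at TEAD1 in chr11:12695935-12696141 and at TEAD4 in chr12:3142792-3143000, each on shared H3K27ac. The last overlapped the MYOD region at chr12:3142735-3142988, and it stood at percentiles 98.1 and 97.9 of score in the control lists. Without KD replicate 1 there were 15 KD-only regions and without KD replicate 2 there were 7. Without control replicate 1 there were 25 control-only regions and without control replicate 2 there were 11. Per the file headers, immunoprecipitation efficiency moved with the groups, at 0.65% and 0.70% in the KD libraries, against 0.88% and 1.83% in the control libraries; its part in the SMARCA4 counts was not tested. Of the 58 regions 49 overlapped H3K27ac (84.5%) and 41 overlapped MYOD (70.7%).

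TWIST2 regions numbered 49 in the 6 windows, of 98 places with a Ty1 peak in either library (50%, against 50.3% in the genome). Per window there were 14 at WWTR1, 13 at TEAD1, 8 at CCN2, 7 at TEAD4, 6 at CCN1 and 1 at YAP1. Per 100 kb of window that was 6.67 at CCN2 and 5.45 at CCN1, the highest of the 6, then 4.24 at WWTR1, 3.68 at TEAD4, 3.42 at TEAD1 and 0.435 at YAP1. Of the places in the target windows, 6 of 7 at CCN1 and 8 of 11 at CCN2 repeated in both Ty1 libraries, against 1 of 10 at YAP1. A peak in Ty1 replicate 1 alone would give 76 regions.

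More of the 49 TWIST2 regions carried H3K27ac in KD cells. The share was 61.2% and 63.3% in the KD libraries, against 49.0% and 46.9% in the control libraries, a difference of 14.3 percentage points (exact permutation p = 0.333). In the whole genome the share was 45.2% and 44.1% in KD libraries, against 36.7% and 35.2% in control libraries. By window, H3K27ac was present at 9 and 9 of the 13 TEAD1 regions in KD cells, against 6 and 8 in control cells. It was present at 5 and 5 of the 7 TEAD4 regions in KD cells, against 3 and 3 in control cells. At CCN1 it was present at 4 and 4 of 6 in KD cells, against 3 and 2 in control cells, and at CCN2 at 5 and 5 of 8 in KD cells, against 3 and 3 in control cells. At WWTR1 the groups overlapped, with 6 and 7 of 14 in KD cells, against 8 and 6 in control cells. TEAD4 thus had more TWIST2 regions with the mark in KD cells although less of its window was covered. With H3K27ac lists of equal length the difference over the windows was 4.08 points, and with Ty1 replicate 1 alone it was 8.55 points.

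MYOD was present at 40.8% and 38.8% of the TWIST2 regions in KD cells, against 40.8% and 34.7% in control cells. SMARCA4 was present at 10.2% and 16.3% in KD cells, against 16.3% and 20.4% in control cells. Neither pair of groups was separate (exact permutation p = 1 for MYOD and 0.667 for SMARCA4). Where a MYOD and a TWIST2 region overlapped, their peaks stood close together, with a median of 56.3 bp between centres over 28 pairs at 27 TWIST2 regions, and 13 of the pairs were within 50 bp. Regions have to overlap to form a pair, which limits this distance. At 10 of the 49 TWIST2 regions (20.4%) no library had a peak of H3K27ac, MYOD or SMARCA4, against 38.3% of 48591 TWIST2 regions in the genome.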

How the data were processed

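ChIP-seq peak lists of 14 libraries of RD cells were used; the other 10 of 24 samples were inputs and were not used here. The submitters' processing notes name HOMER 4.4, Bowtie2 2.3.4.3, bedtools 2.29.2 and SAMtools 0.1.19, with builds hg19 and GRCh37. H3K27ac, MYOD and Ty1 lists were deposited as peak positions alone, which leaves the depth of 10 libraries unknown. SMARCA4 peaks passed a false discovery rate of 0.001 and 4-fold enrichment over input, per the file headers, from 36095336 and 41066933 tags in KD and 46690705 and 44810601 tags in control libraries. The tag signal, score and fold ratio in the deposited SMARCA4 lists are the authors' values, and the score ranked peaks within a list.

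For each antibody, peaks were merged across libraries over the whole genome at 1 bp overlap, and the classes were tested on simulated data. Covered length was clipped to the window. Groups were compared by the exact two-sided permutation test (Python 3.11.15, numpy 2.4.6, scipy 1.17.1; plots with matplotlib 3.10.9). No hg19 annotation was used, so peaks were not assigned to promoters, exons or genes, the windows may hold parts of neighbouring genes, and further Hippo pathway genes were not analysed here. Of 35116 GRCh38 gene starts 8.06% fell in an H3K27ac region, so that build was not used for peaks.

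The rule named the widest H3K27ac region of a window, every H3K27ac KD-only and control-only region, KD-only MYOD in KD-only H3K27ac, SMARCA4 found in all 4 libraries, and MYOD of 1 group on TWIST2. Other regions were named after their values were seen. Members, lists and tests were chosen with earlier results of these data known. Alternatives were peak centres, windows widened by 50000 bp, the upper 0.5 of each list, lists of equal length, a merge distance of 500 bp, an overlap of at least 0.5, MYOD peaks of 200 bp, a replicate block and leaving out each library.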

Additional observations from a re-analysis of the deposited data

How the results depend on the processing

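The direction of the H3K27ac covered-length difference was the same in each of the 6 windows under all 9 alternatives run, with a range of 6.08 to 12.6 kb at CCN1, 4.86 to 9.29 kb at CCN2, 13.9 to 19.4 kb at TEAD1, -6.58 to -3.33 kb at TEAD4, -16.0 to -6.47 kb at WWTR1 and -4.02 to -0.838 kb at YAP1. The groups did not overlap in any of the 4 alternatives that kept all libraries and changed which peaks were counted, of which peak centres left every value as it was. Since the groups did not overlap, leaving out a library could not turn the direction, and the replicate block changes only the p-value. Only widened windows, the upper 0.5 of each list and lists of equal length could turn the direction and also changed the values. Numbers of peaks were less stable. With lists of equal length the KD minus control difference was -5.5 for H3K27ac over all windows, -1.5 at YAP1, -4 at WWTR1 and -1.5 at TEAD4, and -0.5 for MYOD at TEAD4. The upper 0.5 of each list gave 1.5 for H3K27ac at TEAD1 and -3.5 for MYOD at TEAD4, and widened windows gave 0.5 for MYOD at CCN2 and 3 for MYOD at CCN1, where the groups then overlapped. Both cuts follow the deposited order, whose meaning the files do not give, for H3K27ac, MYOD and Ty1, and the authors' score for SMARCA4.

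Leaving out each library gave 5 to 11 peaks for the H3K27ac difference over all windows and 2 to 12 for MYOD. For SMARCA4 it gave -16.5 to 0.5, the last without control replicate 2, when SMARCA4 was at 1.5 at TEAD4 and 0.5 at CCN1. SMARCA4 at CCN2 was at -1 without KD replicate 2. H3K27ac at WWTR1 was at -1 without KD replicate 2 and -2 without control replicate 2, and MYOD at TEAD4 ranged over -0.5 to 2.5, the lowest without control replicate 2. The covered length over all windows differed by 3.23 to 25.1 kb, and the share of TWIST2 regions with H3K27ac by 8.55 to 15.3 points.

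When each library was left out, H3K27ac KD-only regions numbered 9 to 14, control-only 3 to 9 and wider shared regions 19 to 26. MYOD KD-only regions numbered 8 to 23 and control-only 5 to 17. SMARCA4 KD-only regions numbered 2 to 15 and control-only 6 to 25. TWIST2 regions numbered 71 to 76. With lists of equal length there were 6 H3K27ac control-only, 1 SMARCA4 KD-only and 3 SMARCA4 control-only regions, and 7 of the 9 H3K27ac and 7 of the 7 MYOD KD-only regions were kept. In the upper 0.5 of each list 5 shared H3K27ac regions were wider, 4 MYOD and 1 SMARCA4 regions were KD-only, and 2 of the 9 H3K27ac KD-only regions were kept. A merge distance of 500 bp or an overlap of at least 0.5 of the shorter peak left 1 SMARCA4 KD-only region. Leaving out a library drops a condition of each class and of a TWIST2 region, so those counts can only stay or rise. The cause of the other moves was not tested.

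With the replicate number as a block, the values were the same and the smallest possible permutation p is 0.5. With only 2 libraries a group, the numbers are not known to pair libraries, and same-numbered libraries did not deviate together (correlation across shared regions -0.000575 for H3K27ac widths, 0.0036 for MYOD and -0.0133 for SMARCA4 list position). No comparison in this design can reach 0.05. Lists of positions carry no depth, so an absent peak does not show that the signal was absent.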
